A study of Mus musculus with 12 samples.

Results

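The genes described here encode Rac1 and Rac3, Cdc42, the kinases Pak1 and Pak3, and the Rnd proteins Rnd1, Rnd2 and Rnd3. They were grouped as GTPases and kinases that work against or beside RhoA in neurites and spines, and were matched by symbol to the Ensembl identifiers of the deposited tables. All 8 were found among the 33560 genes that carry counts. The libraries were polyA-selected RNA-seq of mouse embryonic stem cells differentiated in vitro into neurons to day 21, which the labels call glutamatergic neurons, whereas the text of the series as a whole speaks of hippocampus. Every culture carried either the unmodified Daam1 gene (WT) or a knockout of the Daam1 microexon (KO), in 3 WT and 3 KO cell lines. Daam1 is a formin, a protein that assembles actin filaments, and a microexon is a very short exon, often included in neurons only. Each line gave 1 library after 2 h in vehicle (water) and 1 after 2 h in 10 µM Y-27632, an inhibitor of the kinases ROCK1 and ROCK2. This makes 4 groups of 3 libraries, vehicle and inhibitor for each genotype. The labels number the lines but do not say whether each is 1 clone, so the p-values measure the spread between these lines. In most tests that spread was estimated over all 4 groups together.

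Small GTPases such as Rac and Cdc42 switch between a GTP-bound active and a GDP-bound inactive state. In neurons they are known for driving branched actin and the outgrowth of neurites and spines, and the p21-activated kinases (Pak) bind the active form of Rac and Cdc42 and pass the signal to the actin and myosin machinery. Rnd proteins hardly hydrolyse GTP, so their activity follows their amount and localisation, and they act largely against RhoA and ROCK, through p190 RhoGAP and plexins. ROCK is the kinase that the inhibitor blocks. An mRNA level says nothing of the GTP-bound share of a GTPase.

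The paralogs resemble each other in coding sequence, and a measurement of 1 gene is of use only if its reads can be told from its relatives'. The coding sequences of Rac1 and Rac3 (579 bases each) were identical at 76.9% of aligned bases, and those of Pak1 and Pak3 (1635 bases each) at 75.4%. The longest identical run was 20 bases for the Rac pair and 23 bases for the Pak pair. They are the longest exact matches, and longer stretches with few mismatches were not searched for. These runs are shown in capitals, with their flanks in lower case (principal GENCODE M21 coding transcripts, GRCm38, 5′ to 3′, in the sense of the gene).
Rac1: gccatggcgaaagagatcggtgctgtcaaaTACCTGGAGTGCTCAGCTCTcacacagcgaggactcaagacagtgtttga
Rac3: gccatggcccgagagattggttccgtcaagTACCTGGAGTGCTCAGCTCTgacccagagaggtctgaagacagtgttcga
Pak1: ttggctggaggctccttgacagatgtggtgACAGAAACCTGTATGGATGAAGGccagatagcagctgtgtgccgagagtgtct
Pak3: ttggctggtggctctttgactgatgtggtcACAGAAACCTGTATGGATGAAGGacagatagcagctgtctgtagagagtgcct
The Rac stretches span coding bases 430 to 509 of both genes, and the Pak stretches span 1036 to 1118 of Pak1 and 1033 to 1115 of Pak3. Rac3, Pak1, Pak3 and Rnd3 shared no exonic window of 50 bases with any other annotated gene. Rnd1 shared 1.61% of its windows, and Cdc42 shared 2.20%, the latter with the gene models Gm7407, Gm12492 and Gm6929. The Rnd coding sequences were further apart, at 65.9% identity between Rnd1 and Rnd2, 67.1% between Rnd1 and Rnd3 and 68.0% between Rnd2 and Rnd3.

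Rac1 and Rnd2 overlap a neighbour on the opposite strand. Rac1 (chr5:143503634-143528036, minus strand) overlaps exons of Daglb over 2309 of its 4496 exonic bases. Rnd2 (chr11:101464999-101471853, plus strand) overlaps Vat1 over 226 of its 1990 exonic bases. The libraries were stranded, but whether the counting used strand is not given in the sources used here, so the levels of Rac1 and Rnd2 are uncertain to the extent that reads of these neighbours could be counted with them. In cRPKM, the deposited level scaled to gene length and library size, Daglb itself was at 4.77 to 6.08 over the 12 libraries, against 54.69 to 79.31 for Rac1. Vat1 was listed at 32.85 to 69.81 cRPKM, against 41.7 to 101.77 for Rnd2. The other members lie at chr11:120721470-120723969 (Rac3, plus strand), chr4:137319696-137357720 (Cdc42, minus), chr7:97788541-97912381 (Pak1, plus), chrX:143518591-143797796 (Pak3, plus), chr15:98663421-98677461 (Rnd1, minus) and chr2:51130438-51149111 (Rnd3, minus).

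The libraries held 23253566 to 35012561 counts. One of them stood apart: KO inhibitor line 3 lay at 162.9 on the first principal component, which carried 74.3% of the variance, while the other 11 lay between -73.8 and 68.1. WT vehicle line 2 (68.1) and WT inhibitor line 3 (60.3) came next. In KO inhibitor line 3 the summed level of the 12 markers of the glutamatergic list was 480.5 CPM (counts scaled to library size), against 1610 to 2341 in the other libraries. That list includes the general neuron genes Tubb3, Map2 and Rbfox3, which made up most of the sum, and the other 9 summed to 160.5 CPM, against 451.3 to 678.5. The sum of the 8 neural progenitor markers was 923.3, against 47.6 to 346.4. The label was checked in all libraries: the vesicular glutamate transporter gene Slc17a6 had a median of 305.1 CPM, while Slc17a7, Emx1, Tbr1, Neurod2 and Neurod6 had medians between 0.26 and 1.21 CPM. Of the 9 GABAergic markers, those of transmitter synthesis and transport were present, with medians of 191.3 CPM for Gad1, 181.1 for Gad2 and 155.4 for Slc32a1. Among the lineage factors, Lhx6 had a median of 15.5 CPM, and Dlx1, Dlx2 and Dlx5 had medians of 0.64, 0.26 and 0.13 CPM. Sst and Npy had medians of 113.4 and 39.8 CPM. Daam1 was counted at 153.6 to 182.8 CPM in WT vehicle and 155.3 to 182.3 CPM in KO vehicle, and a gene count does not show whether the microexon is present. In bulk RNA, fewer cells of a type and less RNA per cell cannot be told apart. Where KO inhibitor line 3 moved a log2 difference of the 8 genes, both values are given, with and without it.

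In these neurons all 8 genes were expressed, from a few to well over 100 cRPKM, a unit that is per length. Rac3 and Cdc42 were the most abundant, Rnd2 and Pak1 followed, then Rac1 and Pak3, and Rnd3 and Rnd1 were lowest. Median levels over the 12 libraries were 140.9 cRPKM for Rac3, the Rac with its strongest expression in neurons, and 138.1 for Cdc42. Rac3 exceeded Cdc42 in 6 of 12 libraries, so these neighbours cannot be ordered. Cdc42 exceeded Rnd2 (median 97.5 cRPKM) in all 12. Rnd2 exceeded Pak1 (90.4) in 11 libraries, Pak1 exceeded Rac1 (58.9) in 11 and Rac1 exceeded Pak3 (52.5) in 11, so that each of these orders had 1 exception. Pak3 exceeded Rnd3 (18.4), and Rnd3 exceeded Rnd1 (7.38), in all 12 libraries. All 8 lay in the upper part of the 33560 genes: 77.9% of genes had a lower median than Rnd1, the lowest of the 8, and 98.9% a lower median than Rac3, the highest.

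**Figure D1:**
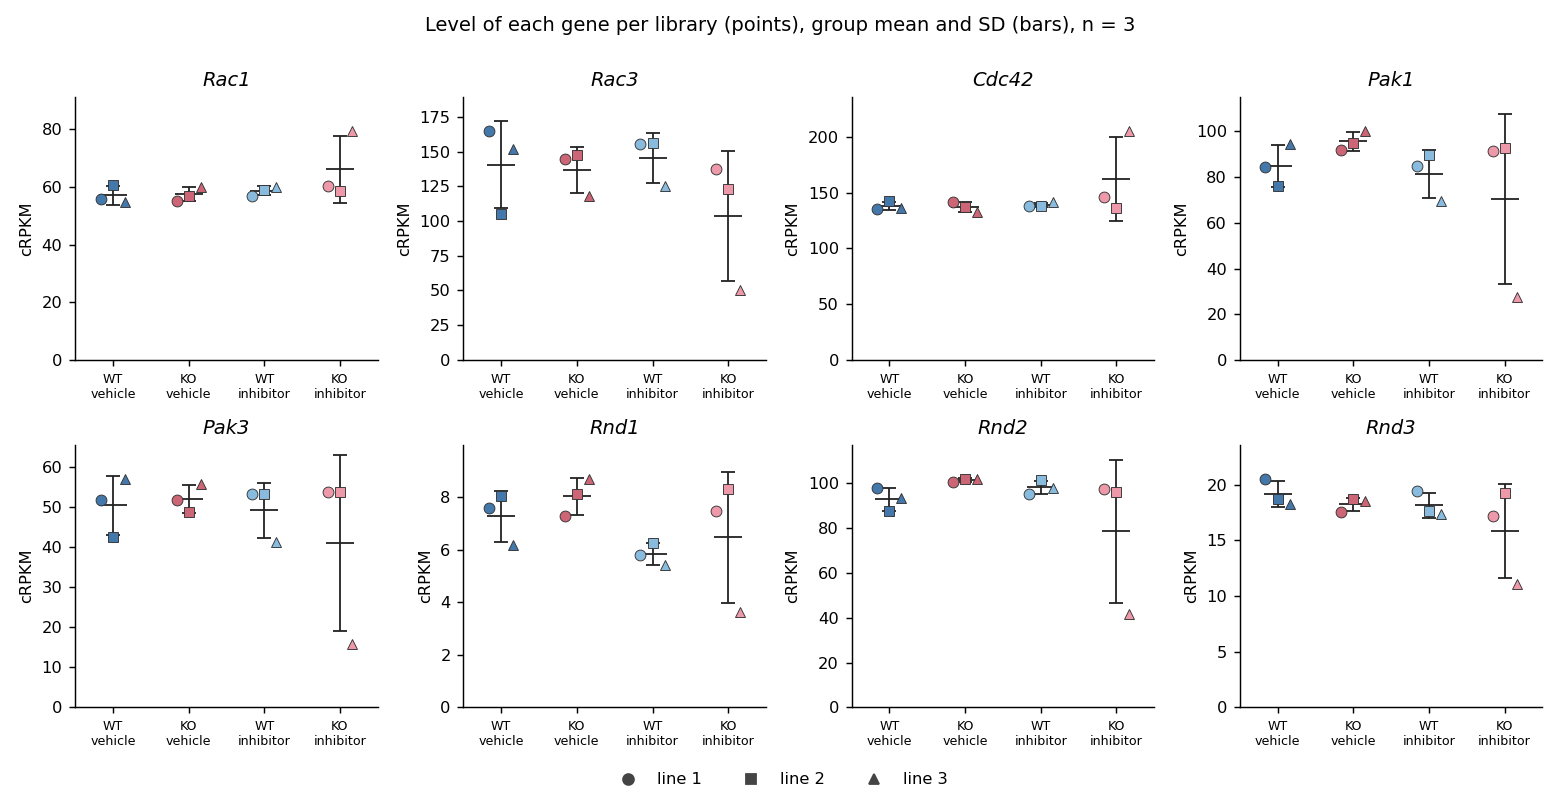
Level of each gene in every library (points, cRPKM, axis from 0) by group, with the group mean and SD (bars, n = 3); marker shapes give the line number within a genotype. In KO inhibitor, line 3 is the highest point for Rac1 and Cdc42 and the lowest point for the other 6 genes.

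The spread over libraries separated the genes. Leaving KO inhibitor line 3 aside, the coefficient of variation of cRPKM over the other 11 libraries was 2.69% for Cdc42, 3.80% for Rac1, 4.42% for Rnd2 and 5.49% for Rnd3. It was wider for Pak3 (9.91%), Pak1 (10.1%), Rac3 (13.5%) and Rnd1 (15.4%). Cdc42 and Rac1 were thus the steadiest of the 8, and Rac3 and Rnd1 the least steady.

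The ubiquitous Rac1 read 55.77, 60.82 and 54.69 cRPKM in WT vehicle (lines 1 to 3) and 55.33, 56.89 and 60.1 in KO vehicle. With inhibitor it read 56.92, 59.12 and 59.91 in WT and 60.35, 58.66 and 79.31 in KO. The groups overlapped in every comparison of treatment or genotype, and KO inhibitor line 3 was the highest of the 12.
Rac3 read 164.46, 105.25 and 151.75 cRPKM in WT vehicle and 144.59, 147.65 and 117.76 in KO vehicle. After inhibitor the values were 155.4, 156.34 and 124.91 in WT and 137.24, 123.34 and 50.21 in KO. The lowest WT values were those of vehicle line 2 and inhibitor line 3, the libraries with the highest summed mesenchymal markers (1763 and 1101 CPM, against 49.1 to 632.1 in the other 10). Leaving KO inhibitor line 3 aside, they also had the highest progenitor sums (336.5 and 346.4 CPM) and the lowest glutamatergic list sums (1634 and 1610). Their oligodendrocyte lineage, pluripotent, microglia and endothelial sums were likewise highest. The part of these differences in composition in the Rac3 values was not tested.

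Cdc42, which sets polarity and filopodia, read 135.56, 142.29 and 136.66 cRPKM in WT vehicle and 141.61, 137.34 and 132.94 in KO vehicle. In inhibitor it stood at 137.68, 138.49 and 141.43 in WT and 145.94, 135.9 and 205.02 in KO. Apart from KO inhibitor line 3, the 11 values lay between 132.94 and 145.94.

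Pak1 read 84.51, 75.92 and 94.36 cRPKM in WT vehicle and 91.98, 95 and 99.97 in KO vehicle. With inhibitor it read 84.81, 89.49 and 69.65 in WT and 91.28, 92.54 and 27.38 in KO. Among the WT libraries the same pair, vehicle line 2 and inhibitor line 3, was lowest. Pak3, a brain-enriched X-linked paralog tied to intellectual disability in humans, read 51.78, 42.56 and 57.08 cRPKM in WT vehicle and 51.73, 48.92 and 55.82 in KO vehicle. In inhibitor the kinase was at 53.21, 53.21 and 41.25 in WT and 53.93, 53.78 and 15.78 in KO. Its lowest WT values came from the same 2 libraries as those of Pak1. As a description over libraries that share composition and depth, log2 CPM of Pak1 and Pak3 had r = 0.99 over 12 libraries and r = 0.86 over the 11 without KO inhibitor line 3.

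Rnd1 was the scarcest, with 218 to 591 counts a library. It read 7.57, 8.04 and 6.18 cRPKM in WT vehicle and 7.28, 8.12 and 8.69 in KO vehicle. After inhibitor the values were 5.81, 6.26 and 5.42 in WT and 7.48, 8.3 and 3.62 in KO. Each WT line read lower with inhibitor than in vehicle, but WT vehicle line 3 (6.18) lay below WT inhibitor line 2 (6.26), so the groups overlapped.
Rnd2, known for its part in the migration of cortical neurons, read 97.53, 87.27 and 93.35 cRPKM in WT vehicle and 100.3, 101.64 and 101.77 in KO vehicle. With inhibitor it read 95.27, 101.13 and 97.69 in WT and 97.42, 96.15 and 41.7 in KO. All 3 KO vehicle libraries lay above all 3 WT vehicle libraries, and above all 3 KO inhibitor libraries.
Rnd3, also called RhoE, read 20.52, 18.68 and 18.29 cRPKM in WT vehicle and 17.56, 18.68 and 18.5 in KO vehicle. In inhibitor it stood at 19.41, 17.66 and 17.33 in WT and 17.17, 19.25 and 11.12 in KO. Apart from KO inhibitor line 3, its groups overlapped throughout.

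KO inhibitor line 3 split the 8 genes. Against the median of the other 11 libraries, log2 CPM there was 0.33 higher for Rac1 and 0.48 higher for Cdc42, both above all 11. The other 6 were below all 11, with log2 differences of -1.81 for Pak1, -1.84 for Pak3, -1.64 for Rac3, -1.30 for Rnd2, -1.07 for Rnd1 and -0.83 for Rnd3. Of all 15443 genes tested, 38.4% were above and 39% below all other 11 libraries there, so lying outside the range was common in this library. Its marker sums moved as well: GABAergic neuron markers summed to 297.9 CPM (597.0 to 807.1 elsewhere), astrocyte markers to 1384 (599.1 to 853.9), pluripotent markers to 177.1 (20.6 to 64.5), oligodendrocyte lineage markers to 554.6 (24.4 to 170.6), microglia markers to 13.3 (0.65 to 10.0) and endothelial markers to 385.2 (4.13 to 146.1). Several of these sums were carried by 1 or 2 genes: Klf4 gave 165.9 CPM of the pluripotent sum, Pdgfra 509.3 of the oligodendrocyte lineage sum, Csf1r 12.9 of the microglia sum, and Flt1 and Tek 220.6 and 131.3 of the endothelial sum. Some other members of the same lists were near 0 or lowest there, with Pou5f1 at 0.06, Esrrb at 2.23, Mbp at 5.18, Aif1 at 0.06 and Pecam1 at 0.25 CPM. Others were highest there, such as Zfp42 at 4.07, Olig1 at 24.5, Olig2 at 11.9, Cdh5 at 26.6 and Kdr at 6.39 CPM. In this library 4 of 7 pluripotent, 4 of 7 oligodendrocyte lineage, 2 of 6 microglia and 4 of 6 endothelial markers were highest. In each of these lists 1 marker was lowest. Of the 12 genes of the glutamatergic list, 7 were lowest in this library and Tbr1 was highest there, and all 8 progenitor markers were highest. The endothelial marker Cldn5 was at 0 counts in all 12 libraries. The part of cell composition in the values of the 8 genes was not tested.

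**Figure D2:**
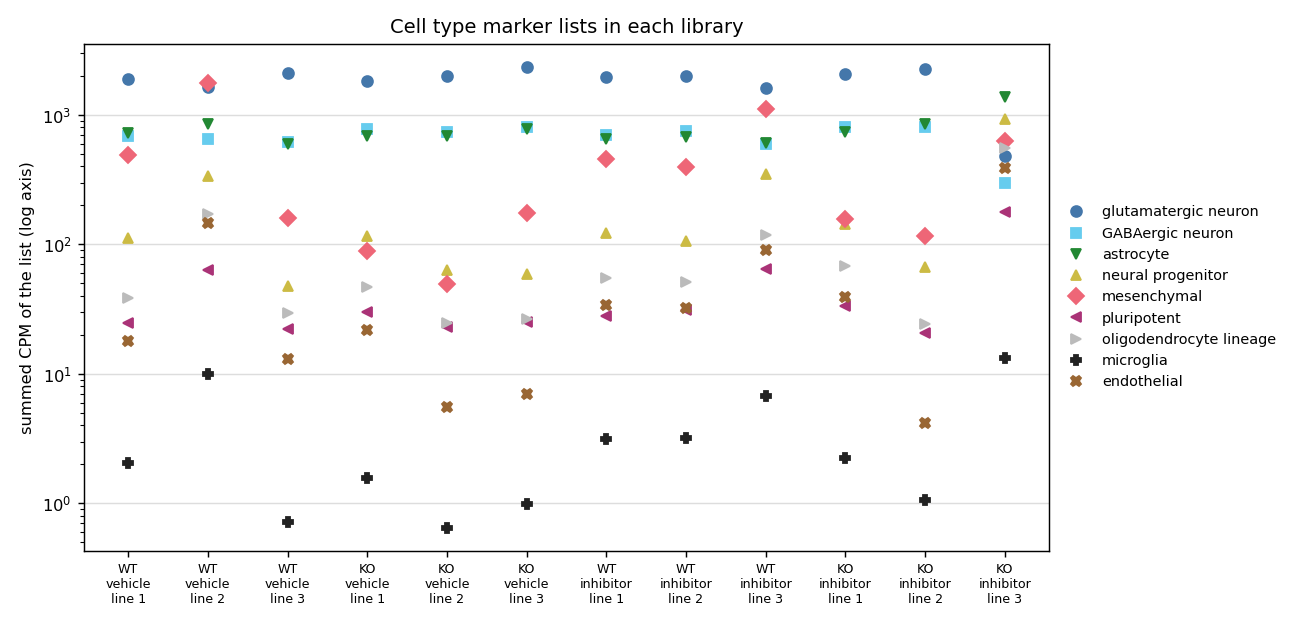
Summed CPM of each cell type marker list (log axis) in the 12 libraries. KO inhibitor line 3 has the lowest sum of the glutamatergic list (480.5, general neuron genes included) and the lowest GABAergic sum (297.9), and the highest progenitor (923.3), astrocyte (1384) and endothelial (385.2) sums, and the mesenchymal sum is highest in WT vehicle line 2 (1763).

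The first comparison asked whether the microexon knockout goes with other levels of these genes in untreated neurons. In vehicle, Rac1, Rac3, Cdc42 and Rnd3 had small estimated log2 differences (KO minus WT ± SE). These were 0.04 ± 0.13, -0.0023 ± 0.33, 0.02 ± 0.14 and -0.04 ± 0.19. Pak1, Rnd1 and Rnd2 read higher in KO by 0.21 ± 0.38, 0.17 ± 0.28 and 0.16 ± 0.27, and Pak3 by 0.08 ± 0.39. None passed the test: adjusted p was 0.999 to 1.00 for the 8 genes in edgeR's quasi-likelihood test with Benjamini-Hochberg adjustment over 15443 genes, 3 lines against 3. The 95% intervals were narrowest for Rac1 (-0.24 to 0.32) and Cdc42 (-0.29 to 0.34) and wide for Pak1 (-0.64 to 1.05) and Rac3 (-0.74 to 0.74). The small Rac3 estimate therefore does not show equal levels. The spread behind them was estimated over all 12 libraries, in this and every comparison but the line sums. KO inhibitor line 3 thus entered it, though it belongs to neither vehicle group. Without that library Pak1 was again 0.21, with unadjusted p = 0.0703 in place of 0.598 in edgeR's quasi-likelihood test (adjusted p = 0.574). In the fit over 12 libraries a moderate change of Pak1 would not have been detectable. In this comparison 0 of all genes tested were called, or 0%. The unadjusted p was below 0.05 for 307 genes, or 1.99%, with 0 members among them, and DESeq2 called 11 genes, none of them a member.

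Pak1 and Rnd2 were the 2 members whose KO vehicle libraries all lay above the WT vehicle libraries in CPM. Pak1 read 285.4, 288.2 and 307.8 CPM in KO vehicle against 248.9, 236.1 and 279.4 in WT vehicle. Rnd2 read 138.8, 137.5 and 139.7 CPM against 128.1, 121.0 and 123.2. Such separation was seen for 12.5% of all genes tested, and with 8 members a count of 2 says little beside it. In cRPKM, Pak1 overlapped (KO 91.98 against WT 94.36) and Rnd2 did not. In the fit without KO inhibitor line 3, the Rnd2 difference was 0.16 again, with unadjusted p = 0.0144 and adjusted p = 0.535 in edgeR's quasi-likelihood test with Benjamini-Hochberg adjustment. In that fit 1336 of 15591 genes (8.57%) had an unadjusted p below 0.05, and Rnd2 was the 1 member among them. Beside Rnd2, its overlapping neighbour Vat1 moved the other way, at 91.8 to 110.4 CPM in KO vehicle and 115.5 to 156.7 in WT vehicle. The mesenchymal markers also differed here: all 9 had lower estimates in KO vehicle and 7 of them had an unadjusted p below 0.05 (sums of 49.1 to 174.1 CPM in KO and 158.3 to 1763 in WT), and their part in the values of Pak1 and Rnd2 was not tested.

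The second comparison asked the same in neurons given Y-27632. KO lines read higher for Rac1 (log2 0.13 ± 0.13), Cdc42 (0.18 ± 0.14) and Rnd1 (0.13 ± 0.28), and lower for Rac3 (-0.51 ± 0.33), Pak1 (-0.22 ± 0.38), Pak3 (-0.27 ± 0.39), Rnd2 (-0.34 ± 0.27) and Rnd3 (-0.22 ± 0.19). Adjusted p was 0.856 to 0.901 in edgeR's quasi-likelihood test with Benjamini-Hochberg adjustment, 0% of genes were called, and 540 genes (3.5%) had an unadjusted p below 0.05, with 0 members among them. DESeq2 called 18 genes and no member. All of these estimates changed when KO inhibitor line 3 was left out. Without it they became 0.02 for Rac1 and Cdc42, -0.16 for Rac3, 0.17 for Pak1, 0.13 for Pak3, -0.02 for Rnd2, 0.0053 for Rnd3 and 0.43 for Rnd1, the last with unadjusted p = 0.0149 and adjusted p = 0.502 in the same edgeR test. In the fit without that library 1481 genes (9.5%) had an unadjusted p below 0.05, so 1 member of 8 is near the background. No member separated the 2 groups, against 10.5% of all genes.

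The third comparison asked what 2 h of ROCK inhibition does to these genes in WT neurons. Little movement was measured. The log2 differences (inhibitor minus vehicle) were 0.05 ± 0.13 for Rac1, 0.07 ± 0.33 for Rac3, 0.02 ± 0.14 for Cdc42, -0.05 ± 0.38 for Pak1, -0.02 ± 0.39 for Pak3, 0.09 ± 0.27 for Rnd2 and -0.07 ± 0.19 for Rnd3. Rnd1 had the largest estimate, -0.31 ± 0.28 (95% interval -0.94 to 0.33), and -0.31 again in the fit without KO inhibitor line 3 (unadjusted p = 0.0442, with 1.36% of genes below 0.05 there, and adjusted p = 1.00 by edgeR). All 8 had an adjusted p of 1.00 in edgeR's quasi-likelihood test with Benjamini-Hochberg adjustment. By that test 0% of genes were called, 47 genes (0.304%) had an unadjusted p below 0.05 with 0 members among them, and DESeq2 called 0 genes. No member separated the groups, against 5.97% of all genes.

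Paired within lines, Rnd1 was lower with inhibitor in 3 of 3 WT lines, by log2 differences of -0.35, -0.39 and -0.15. In the KO lines its differences were -0.01, 0.04 and -1.37, the last being line 3. Rnd3 was also lower in 3 of 3 WT lines, by smaller amounts (-0.05, -0.11 and -0.04). The share of all genes lower in 3 of 3 WT lines was not counted, so these signs have no background beside them. The pairing was also weak: the deviations of the vehicle and inhibitor libraries correlated at 0.65, -0.70 and -0.83 in WT lines 1 to 3. Rac3, Pak1 and Pak3 went in different directions from line to line: in WT line 2 they read 0.54, 0.21 and 0.29 higher with inhibitor, and in WT line 3 they read -0.24, -0.40 and -0.43. Those lines hold the 2 WT libraries with high mesenchymal and progenitor sums, 1 in vehicle and 1 in inhibitor. Rac1 and Cdc42 moved by at most 0.17 in any WT line.

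**Figure D3:**
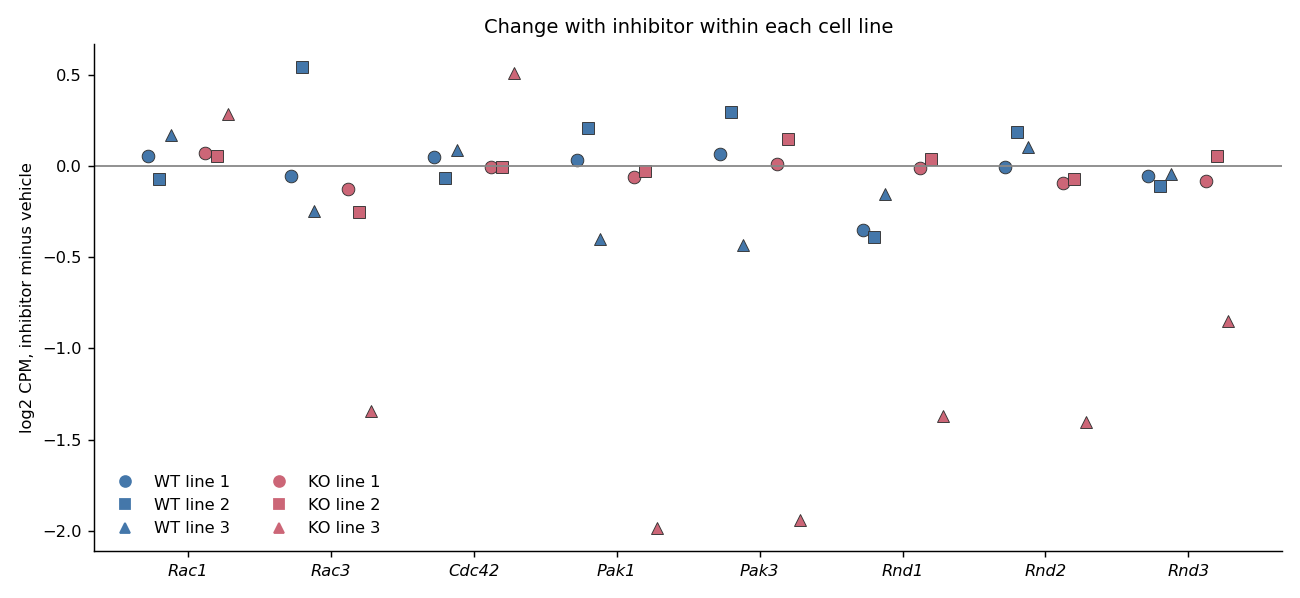
Difference in log2 CPM between the inhibitor and the vehicle library of each cell line, for the 8 genes (blue, WT lines; red, KO lines; shapes, line numbers). The 3 WT points of Rnd1 lie below 0 (-0.15 to -0.39), and KO line 3 has the most extreme value for every gene, down to -1.98 for Pak1.

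The fourth comparison was the same treatment in KO neurons. Rac1 (0.14 ± 0.13) and Cdc42 (0.18 ± 0.14) read higher with inhibitor, and Rac3 (-0.44 ± 0.33), Pak1 (-0.48 ± 0.38), Pak3 (-0.38 ± 0.39), Rnd1 (-0.35 ± 0.28), Rnd2 (-0.41 ± 0.27) and Rnd3 (-0.25 ± 0.19) lower. None passed, with adjusted p of 0.50 to 0.58 in edgeR's quasi-likelihood test with Benjamini-Hochberg adjustment. By that test 0% of genes were called, 1088 genes (7.05%) had an unadjusted p below 0.05 with 0 members among them, and DESeq2 called 0 genes. Without KO inhibitor line 3 the estimates shrank to 0.03 for Rac1, 0.02 for Cdc42, -0.09 for Rac3, -0.08 for Pak1, 0.02 for Pak3, -0.05 for Rnd1, -0.09 for Rnd2 and -0.02 for Rnd3. Pak1 and Rnd2 had all 3 inhibitor libraries below all 3 vehicle libraries in CPM, and such separation was seen for 8.84% of all genes tested. In cRPKM, Pak1 overlapped (inhibitor line 2 at 92.54, vehicle line 1 at 91.98) and Rnd2 did not. For Rnd2 the CPM values were 130.1, 130.9 and 52.8 CPM with inhibitor, against 138.8, 137.5 and 139.7 in vehicle.

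Whether the inhibitor response differs between genotypes was tested by the interaction (response in KO minus response in WT). Estimates were 0.10 ± 0.18 for Rac1, -0.51 ± 0.47 for Rac3, 0.16 ± 0.20 for Cdc42, -0.43 ± 0.53 for Pak1, -0.35 ± 0.55 for Pak3, -0.04 ± 0.40 for Rnd1, -0.50 ± 0.38 for Rnd2 and -0.18 ± 0.26 for Rnd3. Adjusted p was 0.808 to 0.967 in edgeR's quasi-likelihood test with Benjamini-Hochberg adjustment, with 0% of genes called, 185 genes (1.2%) at an unadjusted p below 0.05 and 0 members among them. DESeq2 called 0 genes, and limma on log2 cRPKM called 0 genes here and in each of the 4 comparisons above. Without KO inhibitor line 3 the Rnd2 estimate was -0.18 (unadjusted p = 0.04995, with 2.03% of genes below 0.05 there, and adjusted p = 1.00 by edgeR) and the Rnd1 estimate turned to 0.26. In that fit the others became -0.02 for Rac1, -0.16 for Rac3, -0.0063 for Cdc42, -0.03 for Pak1, 0.05 for Pak3 and 0.04 for Rnd3. These comparisons share libraries (the KO vehicle group enters 3 of them), so their estimates for a gene are not independent.

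With the 2 libraries of each line summed, KO lines against WT lines gave log2 differences of 0.12 ± 0.10 for Rac1, -0.24 ± 0.23 for Rac3, 0.14 ± 0.10 for Cdc42, 0.01 ± 0.19 for Pak1, -0.08 ± 0.19 for Pak3, 0.17 ± 0.17 for Rnd1, -0.07 ± 0.16 for Rnd2 and -0.11 ± 0.13 for Rnd3. Adjusted p was 0.998 for each in edgeR's quasi-likelihood test with Benjamini-Hochberg adjustment over 16090 genes. By that test 0% were called, 426 genes (2.65%) had an unadjusted p below 0.05 with 0 members among them, and DESeq2 called 88 genes and no member. No member separated the lines of the genotypes, against 8.97% of all genes. Leaving out KO line 3 moved Pak1 to 0.18 (unadjusted p = 0.0168, adjusted p = 0.334 by edgeR). The others became 0.03 for Rac1, -0.03 for Rac3, 0.04 for Cdc42, 0.10 for Pak3, 0.28 for Rnd1, 0.08 for Rnd2 and -0.0070 for Rnd3. In that fit 2136 of 16337 genes (13.1%) had an unadjusted p below 0.05, so 1 member of 8 is at the background share.

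**Figure D4:**
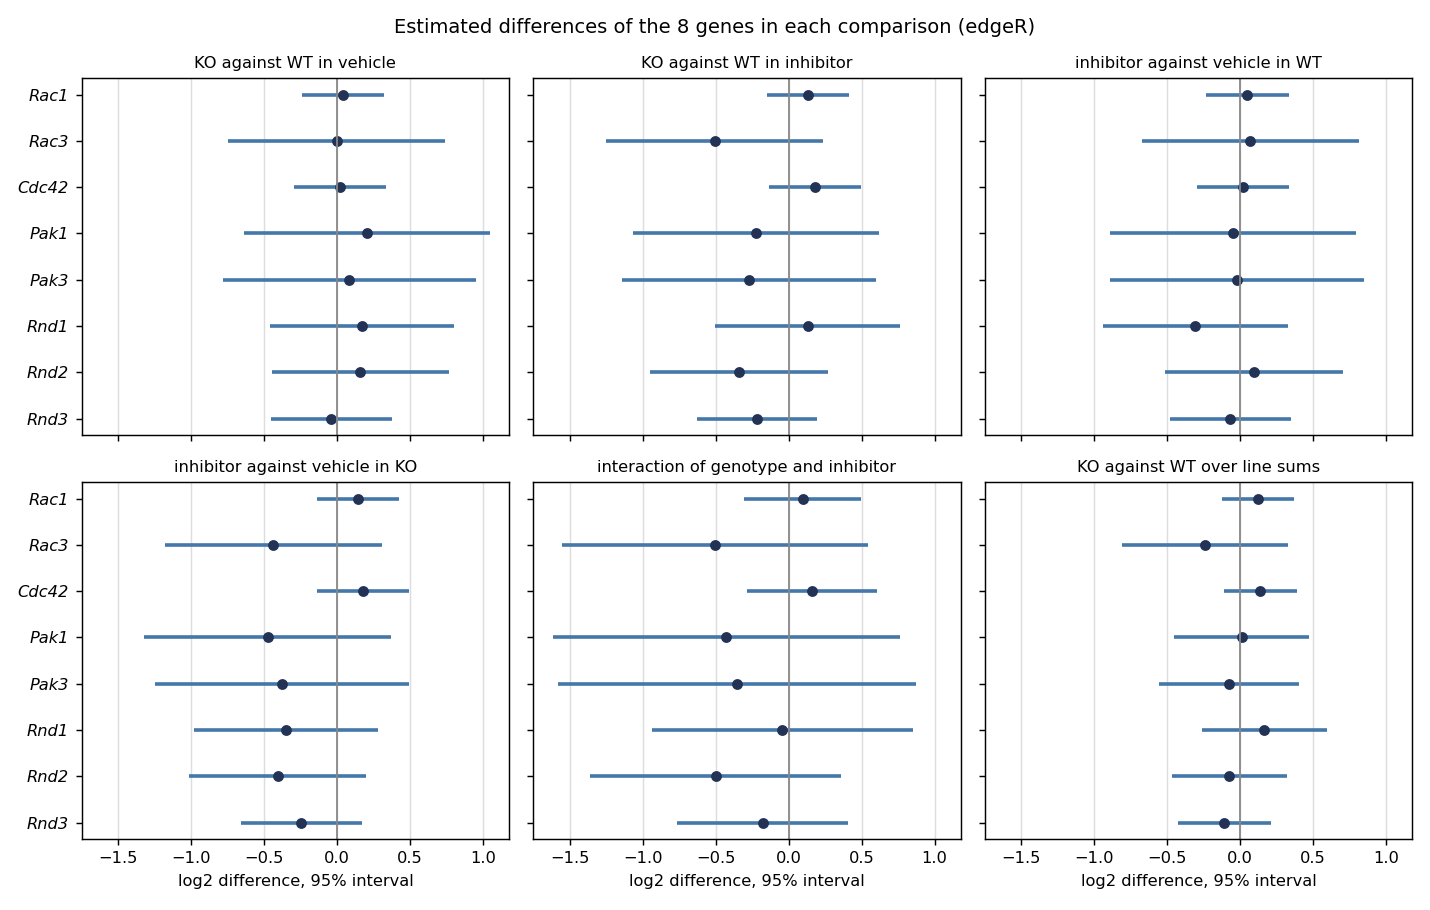
Estimated log2 differences of the 8 genes (points) with 95% intervals (lines) in the 6 comparisons by edgeR; positive values mean higher in KO, higher with inhibitor, or a more positive response in KO. Every interval includes 0, and the intervals of Rac1 and Cdc42 are the narrowest in the 5 comparisons over 12 libraries.

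Shares within a family do not depend on how libraries are scaled. Rac3 made up 63.4% to 74.7% of the summed cRPKM of Rac1 and Rac3 in 11 libraries and 38.8% in KO inhibitor line 3. Group means were 70.5% ± 6.21 (WT) and 70.2% ± 3.49 (KO) in vehicle, and 71.1% ± 3.07 (WT) and 58.7% ± 17.3 (KO) with inhibitor (SD, n = 3). Without line 3 the KO inhibitor mean was 68.6% (n = 2). By cRPKM, Rac3 was thus the larger part of the sum in 11 of the 12 libraries. In counts, which are not per length, Rac1 exceeded Rac3 in every library (6485 against 4795 in WT vehicle line 1).

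Pak3 made up 34.0% to 38.6% of the summed cRPKM of Pak1 and Pak3 in all 12 libraries. In counts, which are not per length, Pak3 exceeded Pak1 in every library (12654 against 7236 in WT vehicle line 1). In KO inhibitor line 3, where both kinases were lowest, the share was 36.6%, inside the range of the others. The KO inhibitor shares of 37.1%, 36.8% and 36.6% lay below the WT inhibitor shares of 38.6%, 37.3% and 37.2%, and above the KO vehicle shares of 36.0%, 34.0% and 35.8%. Each of these differences had an exact permutation p of 0.1, the smallest that 3 libraries against 3 allow (two-sided), and 0.4 after Benjamini-Hochberg adjustment over 20 share tests.

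Among the Rnd genes, Rnd2 made up 73.9% to 81.1% of the summed cRPKM, Rnd3 14.0% to 19.7% and Rnd1 4.50% to 7.05%. The Rnd1 share was 6.03%, 7.05% and 5.25% in WT vehicle and 4.82%, 5.01% and 4.50% in WT inhibitor. It was 5.82%, 6.32% and 6.74% in KO vehicle and 6.13%, 6.71% and 6.41% in KO inhibitor. WT inhibitor therefore lay below each of the other groups, and KO inhibitor line 3 (6.41%) lay with the other KO libraries. The difference was -1.33 percentage points against WT vehicle, and KO inhibitor lay 1.64 points above WT inhibitor, each with an exact permutation p of 0.1 (two-sided, adjusted 0.4 over 20 tests). The Rnd3 share was lower in KO vehicle (14.0%, 14.5% and 14.3%) than in WT vehicle (16.3%, 16.4% and 15.5%), with the same exact p of 0.1 and adjusted value of 0.4. The design cannot reach 0.05 for a share, so these remain descriptions.

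**Figure D5:**
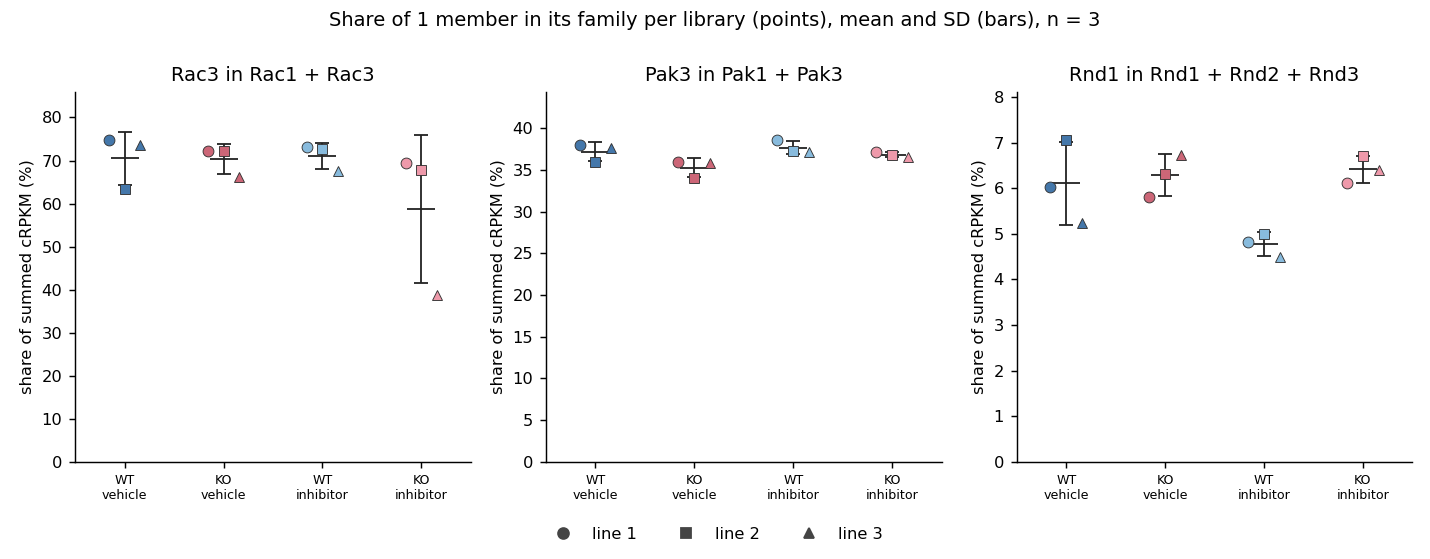
Share of Rac3 in Rac1 plus Rac3, of Pak3 in Pak1 plus Pak3 and of Rnd1 in the 3 Rnd genes, as percent of summed cRPKM (axes from 0), per library (points) with group mean and SD (bars, n = 3). The 3 WT inhibitor points of Rnd1 (4.50% to 5.01%) lie below the other 9, and the Pak3 share stays between 34.0% and 38.6%.

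Within lines, the Rnd1 share changed with inhibitor by -1.20, -2.05 and -0.75 percentage points in WT lines 1 to 3, and by 0.31, 0.39 and -0.32 points in KO lines 1 to 3. The changes of the 2 genotypes did not overlap, with a mean difference of 1.46 points and an exact permutation p of 0.1, or 0.167 after Benjamini-Hochberg adjustment over 5 shares. This test of shares within lines was added after the shares had been seen.

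The wider pathway was followed in 91 other genes, of which 88 passed the low-count filter. They cover further Rac and Cdc42-type GTPases, other Pak kinases, exchange factors, GTPase-activating proteins, GDP-dissociation inhibitors, effectors and Rnd partners. None of the 88 was called in any of the 6 comparisons by edgeR's quasi-likelihood test with Benjamini-Hochberg adjustment, and 0, 1, 0, 7, 1 and 1 of them had an unadjusted p below 0.05 in the order given above. Of all genes tested, 1.99%, 3.5%, 0.304%, 7.05%, 1.2% and 2.65% did so. With inhibitor in WT lines, 67 of the 88 had lower estimates and 21 higher, with a median of -0.05. Of all genes tested, 7190 were lower and 8253 higher there, with a median of 0.01. In KO lines 50 of the 88 were lower and 38 higher with inhibitor (median -0.10), beside 7995 lower and 7448 higher of all genes (median -0.02). Without KO inhibitor line 3 this turned to 35 lower and 53 higher (median 0.03), with 1 rather than 7 at an unadjusted p below 0.05. Among all genes that fit had 7639 lower and 7952 higher (median 0.0034). In vehicle, KO lines had 46 of the 88 lower and 42 higher (median -0.03), beside 7985 lower and 7458 higher of all genes (median -0.01). Without KO inhibitor line 3 in the fit (for line sums, without KO line 3), the counts at an unadjusted p below 0.05 in the 6 comparisons were 8, 9, 3, 1 and 2 of 88 and 16 of 89, and none was called by edgeR. Of all genes in those fits, 8.57%, 9.5%, 1.36%, 180 of 15591 (the KO response), 2.03% and 13.1% were below 0.05.

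The pathway genes with the smallest unadjusted p in each comparison were few and did not pass. Plxnd1, a semaphorin receptor, had the smallest in vehicle (log2 -0.49 ± 0.22, KO minus WT), in KO neurons with inhibitor (0.64 ± 0.22) and in the interaction (0.93 ± 0.31). Its CPM was 8.43, 10.5 and 8.06 in WT vehicle, 7.06, 4.89 and 7.29 in KO vehicle, 7.42, 7.60 and 7.04 in WT inhibitor, and 8.78, 8.70 and 12.6 in KO inhibitor. KO vehicle lay below WT vehicle and KO inhibitor without overlap, a separation that 12.5% and 8.84% of all genes showed in either direction, and overlapped WT inhibitor. Over all 12 libraries the unadjusted p of Plxnd1 was 0.0508, 0.0154 and 0.0133 in these comparisons, and its adjusted p was 0.999, 0.474 and 0.808 by edgeR. Without KO inhibitor line 3 its KO response was 0.45 and the interaction 0.74. Rhoq (TC10, a Cdc42 relative) was higher in KO than in WT with inhibitor, at 48.9, 62.6 and 54.6 CPM against 38.5, 37.9 and 47.4. The difference was 0.42 ± 0.14, with adjusted p = 0.856 by edgeR, and over line sums 0.30 ± 0.10, with adjusted p = 0.998.

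The remaining ones were Rhoj in vehicle (-2.37 ± 1.13) and Baiap2, which encodes the Cdc42 and Rac effector IRSp53, with inhibitor (-0.43 ± 0.19) and in the interaction (-0.54 ± 0.27). Rac2 (-0.85 ± 0.54) and Arhgef6 (-0.25 ± 0.18) led in WT with inhibitor, Plxnb1 (1.34 ± 0.53) in KO with inhibitor, and Arhgap5, a p190 RhoGAP, over line sums (0.23 ± 0.10). Plxnb1 stood at 9.81, 9.45 and 46.1 CPM in KO inhibitor, and its estimate without line 3 was 0.16. Baiap2 was -0.29 with inhibitor and -0.40 in the interaction without that library. Rhoj was between 0.22 and 5.18 CPM. It was highest in WT vehicle line 2, WT inhibitor line 3 and KO inhibitor line 3.

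The genes whose log2 CPM followed each member most closely over the 12 libraries were found among genes with a mean of at least 10 CPM, and the correlation is a description of libraries that share composition. Rac3 was followed by Ccdc106 (r = 1.00) and Stx1a (0.99), which encodes syntaxin 1A of the synaptic release machinery, with 0.97 for both in the 11 libraries without KO inhibitor line 3. Pak1 was followed by Rtn1 and Snap91, a clathrin adaptor of synaptic vesicles (1.00 each, then 0.98 and 0.97), and Pak3 by C530008M17Rik and Trim37 (1.00 each, then 0.97 for both). Rnd2 was followed by Fbxo31 (1.00, then 0.90) and the neurofilament gene Nefl (1.00, then 0.87). Rac1 went with Hmgxb3 and Cct2 (0.98 each, then 0.93 and 0.92), and Cdc42 with Capza1, a subunit of the actin capping protein, and Dhx32 (0.99 and 0.98, then 0.88 for both). Rnd1 went with Zbtb14 (0.97, then 0.91) and Emsy (0.96, then 0.89), and Rnd3 with Taok3 (0.99, then 0.82) and Gid4 (0.98, then 0.65). Among the members themselves, Rac1 and Rac3 ran in opposite directions, with r = -0.94 over 12 libraries and -0.78 over 11. Over 12 libraries this was not particular to the pair. Cdc42, which went with Rac1 (0.90, then 0.61), had r = -0.95 with Pak3 and with Rnd3, and -0.93 with Rac3. Over 11 these were -0.45, -0.49 and -0.43, and no pair was more negative than Rac1 and Rac3.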

How the data were processed

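PolyA-selected stranded RNA-seq libraries were made from 12 cultures. Per the file headers and values, each deposited table gives per gene a read count and a cRPKM, an RPKM made by the authors whose correction is not described in the sources used here; the counts are deposited as whole numbers, not normalized. The mm10 build is named in the submitters' processing notes; aligner, counter and strand setting are not given in the sources used here. Of 36902 listed genes, 3342 had no value.

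Counts were fitted for all genes with edgeR 4.0.16 in R 4.3.3 (TMM factors, filterByExpr, robust quasi-likelihood F test; 15443 genes tested, 16090 for line sums), with Benjamini-Hochberg adjustment and calls below 0.05. The biological coefficient of variation was 0.411 (0.36 for line sums). DESeq2 1.42.0, limma 3.58.1 on log2(cRPKM + 1) and log2(cRPKM + 0.1), other scalings and filters, left-out libraries and replicate blocks were alternatives. Correlations used log2 CPM with a prior count of 2. Family shares came from cRPKM, with exact permutation tests. Scripts were tested on simulated data. Genes named beyond the members were, per comparison, the 2 pathway genes with the smallest p at a mean of at least 1 CPM, and per member the 2 with the highest r. Members and gene lists were chosen with earlier results of these data known. Same-numbered libraries of a genotype come from the same line by the labels and so pair vehicle with inhibitor. The correlation of their deviations was 0.65, -0.70 and -0.83 for WT lines 1 to 3 and -0.23, 0.66 and -0.49 for KO lines. Replicate libraries differed by more than sampling noise (chi-square per degree of freedom 4.11 to 852.4). Sequences and positions are from GENCODE M21 on GRCm38.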

Additional observations from a re-analysis of the deposited data

Results flagged for a closer look

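The shares of Rnd2 and Rnd3 in the summed cRPKM of the Rnd genes changed with inhibitor in opposite directions in the 2 genotypes, in every line. The Rnd2 share changed by 1.43, 4.31 and 1.88 percentage points in WT lines 1 to 3 and by -0.34, -1.41 and -5.03 points in KO lines 1 to 3, a difference of -4.80 points between the means (KO minus WT). The Rnd3 share changed by -0.23, -2.27 and -1.13 points in the WT lines and by 0.03, 1.02 and 5.36 points in the KO lines, a difference of 3.34 points. Each difference had an exact permutation p of 0.1, the smallest that 3 lines against 3 allow (0.167 after Benjamini-Hochberg adjustment over 5 shares, two-sided). KO line 3 had the largest KO change in both. Without it the difference was -3.42 points for Rnd2 and 1.73 points for Rnd3, the latter smaller by a factor of 1.93. Shares of 1 family sum to 100%, so these are not separate results.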

How the results depend on the processing

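The 8 genes in 6 comparisons gave 48 estimates and 976 values under the alternatives. No member passed an adjusted p of 0.05 under any of them, the smallest being 0.178 (Rnd3, inhibitor against vehicle in KO, without KO inhibitor line 2, edgeR). Signs turned in 57 values of 23 estimates, none beyond 0.26 in size. The count of all genes called changed from 0 to 11, 18 and 88 with DESeq2 (KO against WT in vehicle, in inhibitor and over line sums), to 2, 1 and 2 without the 3 libraries that stood apart (KO inhibitor line 3, WT vehicle line 2, WT inhibitor line 3), and to 2 over line sums with no filter on low counts. The cause was not tested.

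For KO against WT in vehicle, Rac3 became 0.0023 with DESeq2, 0.0023 with RLE factors and 0.0010 with a filter of 1 CPM, Cdc42 became -0.0091 scaled by library totals, -0.0092 with limma on log2(cRPKM + 1) and -0.0093 on log2(cRPKM + 0.1), and Pak3 became -0.0028 without the 3 libraries. Without those 3, KO against WT in inhibitor gave 0.12 for Pak1, 0.058 for Pak3, 0.019 for Rnd2 and 0.017 for Rnd3, the WT response of Rac3 became -0.0085 and the KO response of Pak3 0.038. The interaction then became -0.041 for Rac1, -0.0033 for Cdc42, 0.060 for Pak3, 0.14 for Rnd1 and 0.044 for Rnd3, and line sums gave 0.027 for Pak3, 0.086 for Rnd2 and 0.021 for Rnd3. With no filter on low counts the WT response of Cdc42 was -0.0099 and the interaction of Rnd1 0.0032, or 0.0046 scaled by library totals. Over line sums Pak1 was -0.017 scaled by library totals.

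With a replicate block (the line for the inhibitor responses and the interaction, the number for genotype, where it pairs different lines), 0 genes were called in all 6 comparisons, and the block changed no call. It turned Pak1 over line sums to -0.019.

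Leaving out 1 library at a time gave these ranges where a sign turned. In vehicle, KO against WT ran from -0.00065 to 0.11 for Rac1, -0.16 to 0.11 for Rac3, -0.0079 to 0.067 for Cdc42 and -0.0061 to 0.17 for Pak3. In inhibitor it ran from -0.49 to 0.17 for Pak1, -0.53 to 0.13 for Pak3, -0.11 to 0.43 for Rnd1 and -0.41 to 0.0053 for Rnd3. The WT response ran from -0.11 to 0.18 for Rac3, -0.0061 to 0.041 for Cdc42, -0.13 to 0.051 for Pak1 and -0.14 to 0.091 for Pak3, and the KO response from -0.64 to 0.024 for Pak3. The interaction ran from -0.020 to 0.15 for Rac1, -0.0063 to 0.25 for Cdc42, -0.62 to 0.045 for Pak3, -0.29 to 0.26 for Rnd1 and -0.37 to 0.044 for Rnd3. Leaving out 1 line, line sums ran from -0.11 to 0.18 for Pak1, -0.18 to 0.099 for Pak3 and -0.17 to 0.076 for Rnd2. Of 140 share values under alternatives, 1 moved: from counts, which are not per length, the Rnd3 share differed by -2.67 points between KO and WT in vehicle.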
